A study of Mus musculus with 24 samples.

Results

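The nuclear genes for subunits of mitochondrial complex I were described in RNA-seq of mouse oocytes grown in culture. Members were chosen by name alone, as genes called Nduf followed by a, b, c, s or v and a number, and 36 of the 16572 gene names in the table met this rule, of which 35 are described here. The 35 genes lie on 15 chromosomes of GRCm38, each has 1 row, and the coordinates of all 35 are exactly those of an annotated gene.

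The oocytes came from ovaries of 7-day-old mice of strain C57BL/6 Barb as labelled, and the study's methods describe a cross of C57 Black6 and SV129 backgrounds. Oocytes of the largest class (class IV, 60 to 70 µm in the labels) were collected after 9 days of follicle-free culture in 5% O2 (IV 5% O2) or after 14 days in 20% O2 (IV 20% O2), and the study's text gives a smaller diameter for the latter. Oxygen, culture time and interval between medium changes therefore differ together and cannot be told apart. Oocytes were pooled, ribosomal RNA was depleted from total RNA, and 2 libraries per condition were sequenced, but the table holds 1 value per gene and condition. The differences below therefore carry no SD and no p-value and were not checked in replicates, and a gene was counted as higher or lower where the columns were at least 2-fold apart.

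Complex I is the entry point of the respiratory chain: it takes electrons from NADH, passes them through a flavin and a chain of iron-sulphur clusters to ubiquinone, and pumps protons across the inner mitochondrial membrane. Its catalytic core is made of nuclear-encoded subunits in the arm that reaches into the matrix and of mitochondrially encoded subunits in the membrane arm. A larger number of small accessory subunits surrounds the core and is needed for its assembly and stability. Oocytes hold very many mitochondria and pass them on to the embryo.

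The value of 1 read implies depths of 132185259 reads for IV 5% O2 and 40875359 reads for IV 20% O2. A gene without reads could still have up to 3, which corresponds to 0.0227 and 0.0734 RPM, that is, reads scaled by the depth of the column. None of the 35 genes was near this limit, since the lowest counts were 132 reads for Ndufa3 in IV 5% O2 and 349 reads for Ndufa12 in IV 20% O2. All 12 oocyte marker genes, such as Gdf9 and Zp3, had reads in both columns, and their RPM summed to 9953 in IV 5% O2 and 13550 in IV 20% O2, a direction set mainly by Zp2 (1537 and 3807 RPM) and Zp3 (690 and 1501 RPM), whereas Nobox was higher in IV 5% O2 (496 and 271 RPM). Of the markers of other ovarian cells, 10 of 16 theca and stroma genes were in the table. Their sum was 45.3 RPM in IV 5% O2 against 5.48 RPM in IV 20% O2. Of the 7 that passed the filter on low values, 6 were at least 2-fold higher in IV 5% O2, beside 18.7% of all genes. Col1a2, Dcn and Vim were at 0 in IV 20% O2. The sums were 41.3 and 29.8 RPM for the 6 of 12 granulosa genes in the table (Inha at 0 in IV 20% O2, Fshr at 0 in IV 5% O2), and 24.9 and 22.6 RPM for 4 of 8 macrophage genes (Lyz2 at 0 in IV 20% O2). They were 117 and 285 RPM for 5 of 7 endothelial genes (Kdr at 0 in IV 20% O2), a direction set mainly by Vwf (55.5 and 248 RPM) and shared by Flt1 (0.204 and 1.42 RPM), whereas Pecam1 (45.9 and 32.7 RPM), Tek (13.8 and 3.40 RPM) and Kdr (1.30 and 0 RPM) were higher in IV 5% O2. Alas2, the 1 of 6 erythroid genes in the table, had 1.32 and 1.57 RPM. The part of these cells in the differences below was not tested, and in pooled oocytes fewer cells of a type and less RNA per cell cannot be told apart.

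Transcripts of 26 of the 29 accessory subunits had lower values in IV 5% O2, whereas the 6 core subunits described here were closer to level as deposited. Summed over the 35 genes, the IV 5% O2 column held 809 RPM and the IV 20% O2 column 1351 RPM, a ratio of 0.599. At least 2-fold lower values in IV 5% O2 were found for 13 of the 35 genes, beside 9.22% of the 14704 genes that averaged 1 RPM or more. At least 2-fold higher values were found for 0 of them, beside 18.7% of all genes. With a pseudocount of 5 RPM in place of 1, the count of lower subunits was 8, beside 4.80% of all genes. Median-ratio scaling of the columns gave 17 lower subunits, beside 13.9% of all genes, and 0 higher, beside 11.6%. Quantile normalization gave 15 lower, beside 12.7%, and 0 higher, beside 12.0%. Among all genes these scalings moved the share of higher values among the 2-fold differences from 67.0% to 45.6% and 48.6%. The median log2 difference, computed from log2(RPM + 1) by subtracting the IV 20% O2 value from the IV 5% O2 value, was -0.64 over the 35 genes, with a range from -2.81 to 0.43, and 0.26 over all genes. Negative differences were found for 29 of the 35 genes, and 31 lay below the median of all genes. At the 2-fold limit, Ndufa5 (-1.04) was just inside and Ndufc2 (-0.91) just outside.

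The 6 core subunits summed to 208 RPM at 5% O2 against 224 at 20% O2, a ratio of 0.925, and the 29 accessory subunits to 602 and 1126 RPM, a ratio of 0.534. These core subunits thus made up 25.6% of the RPM of the 35 genes in IV 5% O2 and 16.6% in IV 20% O2. All 13 lower genes were accessory subunits. The median log2 difference was -0.87 over the accessory subunits and -0.10 over the core subunits, and the latter became -0.41 after median-ratio scaling of the columns and -0.27 after quantile normalization. With these scalings the median of all genes was -0.04 and 0.06, so the median of the 35 subunits relative to all genes stayed at -0.91 and -0.86, against -0.90 as deposited. The difference between core and accessory subunits was not tested, since each condition has 1 value.

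**Figure D1:**
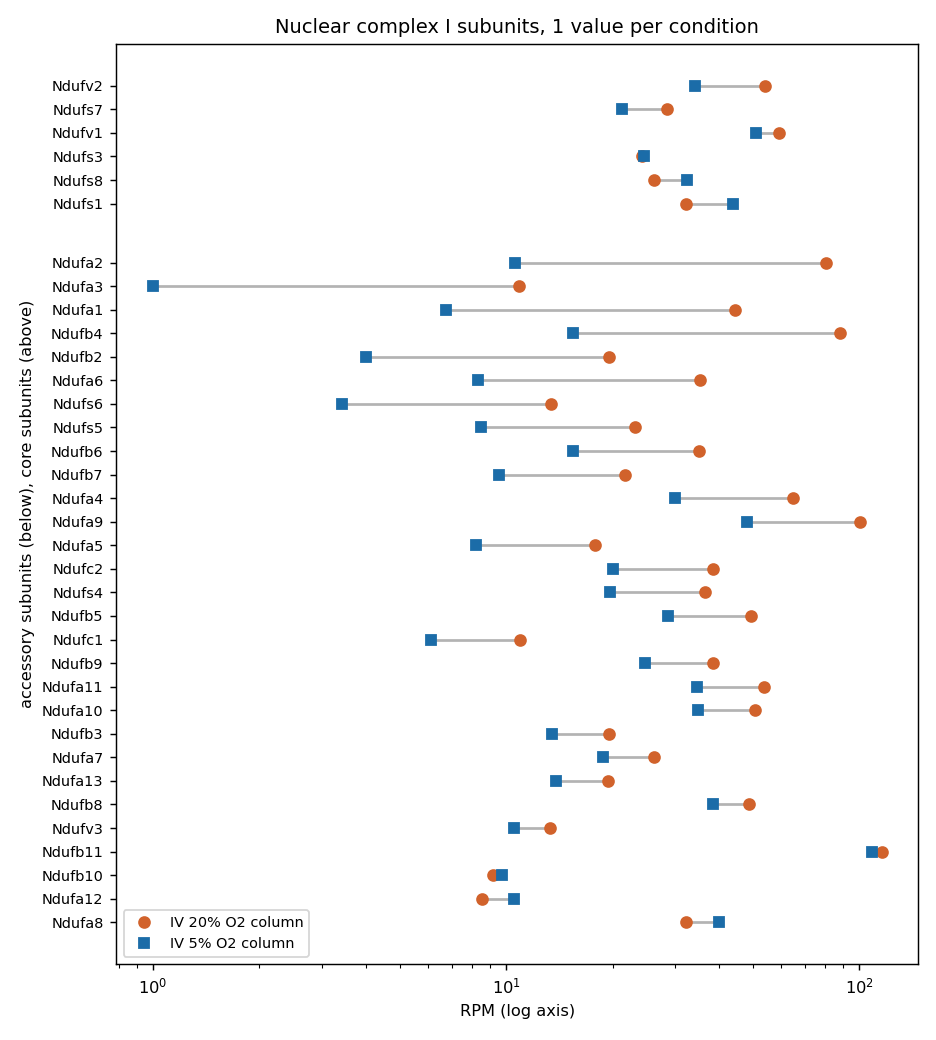
RPM (log axis) of 35 nuclear complex I subunit genes, with 1 square for the IV 5% O2 column and 1 circle for the IV 20% O2 column per gene, 6 core subunits above and 29 accessory subunits below, each ordered by log2 difference. Among the accessory subunits 26 squares lie to the left of their circle in the values as deposited, and Ndufs1, in the last row of the core group, has its square at 44.0 RPM and its circle at 32.3 RPM.

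Of the core subunits on the NADH side, Ndufv1, which binds NADH and the flavin, had 50.8 RPM at 5% O2 against 59.2 at 20% O2 (6717 and 2419 reads), a log2 difference of -0.22. Ndufv2, which carries an iron-sulphur cluster, had 34.3 and 54.0 RPM, a log2 difference of -0.64, the most negative of the core. Ndufs1, the largest core subunit, with several iron-sulphur clusters, had 44.0 and 32.3 RPM, a log2 difference of 0.43, the highest of the 35 genes. The NADH side of the core was thus mixed in direction, with Ndufs1 the only one of its genes that was higher in IV 5% O2. Ndufs1 kept this sign with both other scalings (0.12 with median ratios and 0.27 with quantiles). Its exons overlap 2 genes on the opposite strand, Eef1b2 and Ino80dos, and whether counting used the strand is not given.

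The 3 genes described on the ubiquinone side were within 0.5 of level on the log2 scale as deposited. Ndufs7, which carries the last cluster of the electron path, had 21.3 RPM at 5% O2 against 28.5 at 20% O2, and its log2 difference of -0.40 was -0.71 after median-ratio and -0.56 after quantile scaling. Ndufs3 had 24.6 and 24.2 RPM, and its log2 difference of 0.02 turned to -0.29 and -0.13 with median-ratio and quantile scaling. Ndufs8, with a pair of clusters, had 32.6 and 26.3 RPM, and its log2 difference of 0.30 turned to -0.0096 after median-ratio and 0.14 after quantile scaling. The sums of these 3 genes were 78.4 and 78.9 RPM, a ratio of 0.993, and those of the 3 genes on the NADH side 129 and 145 RPM, a ratio of 0.887.

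The lowest differences were those of Ndufa2, Ndufa3, Ndufa1, Ndufb4 and Ndufb2, which all encode small accessory subunits. Ndufa2, a matrix-arm subunit with a thioredoxin-like fold, lies on chromosome 18 and had 10.6 RPM from 1403 reads at 5% O2, against 80.6 RPM from 3293 reads at 20% O2. Its log2 difference was -2.81, and the log2 ratio without a pseudocount was -2.92, with an exact 95% Clopper-Pearson interval of -3.02 to -2.83. This interval covers counting error only, here and below, and compares the libraries rather than the conditions. Ndufa2 thus had 7.59 times as many RPM in IV 20% O2 as in IV 5% O2.

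Ndufa3, a membrane-arm subunit on chromosome 7 (3617373 to 3620327), had 1.00 RPM from 132 reads at 5% O2, against 10.9 RPM from 445 reads at 20% O2. Its log2 difference was -2.57, but the pseudocount weighs on it: the log2 ratio itself was -3.45 (interval -3.74 to -3.16), and with a pseudocount of 5 RPM the difference was -1.41. By the ratio, Ndufa3 was the furthest apart of all 35 genes. Ndufa1, a short membrane subunit on chromosome X (37187588 to 37191163), had 6.77 RPM (895 reads) and 44.4 RPM (1814 reads), a log2 difference of -2.55 and a log2 ratio of -2.71 (interval -2.83 to -2.60).

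Ndufb4, a membrane-arm subunit on chromosome 16 (37647170 to 37654453), had 15.5 RPM from 2048 reads at 5% O2, against 88.0 RPM from 3595 reads at 20% O2, a log2 difference of -2.43. Part of its count is open to doubt, since 37.5% of the 100-base windows of its transcript also occur elsewhere in the genome. Ndufb2, on chromosome 6 (39592574 to 39603382), had 4.01 RPM (530 reads) and 19.5 RPM (799 reads), a log2 difference of -2.04. Ndufb2 shares exons with an annotated gene on the same strand, Gm42420, and 2.80% of its windows are repeated. In each of these 5 genes the reads of IV 20% O2 outnumbered those of IV 5% O2 although the depth was lower.

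Of the other genes named Ndufa, Ndufa6, an LYR-motif protein, had 8.31 RPM at 5% O2 against 35.3 at 20% O2, a log2 difference of -1.96. Ndufa9, which binds NADPH, had 48.1 and 100.3 RPM (-1.05), and Ndufa5, a matrix-arm subunit, had 8.20 and 17.9 RPM (-1.04). These 3 genes, with Ndufa1, Ndufa2, Ndufa3 and Ndufa4, make up the 7 of 13 Ndufa genes that were at least 2-fold lower, beside 9.22% of all genes and 28.2% of genes with transcripts under 800 bases. The median transcript length was 610 bases for Ndufa genes. Ndufa4, once counted with complex I and now assigned to complex IV, had 30.1 and 65.0 RPM, a log2 difference of -1.09. Without it, 12 of 28 accessory subunits were lower, with a median of -0.81.

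The remaining 6 Ndufa genes were under 2-fold apart. Ndufa11, a membrane-arm subunit, had 34.7 and 53.8 RPM (-0.62), and Ndufa10, a member of the nucleoside kinase family, had 34.8 and 50.5 RPM (-0.53). Ndufa7 had 18.7 and 26.2 RPM (-0.46), and Ndufa13, also known as GRIM-19, had 13.8 and 19.4 RPM (-0.46). Both positive Ndufa genes changed sign with median-ratio scaling. Ndufa8, a twin-cysteine-motif protein of the intermembrane space, had 40.1 and 32.2 RPM, and its log2 difference of 0.31 turned to -0.0033. Ndufa12 had 10.5 and 8.54 RPM, and its log2 difference of 0.27 turned to -0.015, and 17.6% of its windows are repeated. The median of the 13 Ndufa genes was -1.04.

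Of the 10 Ndufb genes, which encode subunits of the membrane arm, 4 were at least 2-fold lower, beside 9.22% of all genes and 28.2% of genes with transcripts under 800 bases, and the median was -0.69. Besides Ndufb4 and Ndufb2, these were Ndufb6, with 15.4 RPM at 5% O2 against 35.2 at 20% O2 (-1.14), and Ndufb7, a twin-cysteine-motif protein, with 9.52 and 21.7 RPM (-1.11). Ndufb5 had 28.8 and 49.2 RPM (-0.75), Ndufb9, another LYR-motif protein, had 24.7 and 38.4 RPM (-0.62), and Ndufb3 had 13.5 and 19.6 RPM (-0.50). Ndufb8 and Ndufb11 were nearer to level. Ndufb8 had 38.4 and 48.8 RPM (-0.34), and Ndufb11, encoded on chromosome X, had 108 and 116 RPM (-0.10, interval of the log2 ratio -0.15 to -0.05). Ndufb10 had 9.71 and 9.20 RPM, and its log2 difference of 0.07 turned to -0.22 after median-ratio and -0.08 after quantile scaling.

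The 4 accessory subunits with names shared with the core groups were all lower in value in IV 5% O2. Ndufs6, a zinc-binding subunit, had 3.42 RPM at 5% O2 against 13.4 at 20% O2 (-1.71). Ndufs5, a twin-cysteine-motif protein, had 8.49 and 23.1 RPM (-1.35), with 37.3% of its windows repeated. Ndufs4, a gene mutated in Leigh syndrome, had 19.7 and 36.6 RPM (-0.87), under the 2-fold limit. Of the 7 Ndufs genes described, these 3 had a median of -1.35, and the 4 core genes had values from -0.40 to 0.43 as deposited. Role and length went partly together here. The principal transcripts of Ndufs6, Ndufs5 and Ndufs4 have 568, 680 and 1698 bases, and those of the core genes 983 or more. The Ndufv genes did not divide in this way. The accessory Ndufv3 had 10.5 and 13.3 RPM (-0.31), between the core genes Ndufv1 (-0.22) and Ndufv2 (-0.64). The pair of Ndufc genes, both of the membrane arm, had 6.12 and 11.0 RPM (Ndufc1, -0.75) and 20.0 and 38.6 RPM (Ndufc2, -0.91).

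The twin-cysteine-motif subunits, which are imported by a shared oxidative folding pathway, differed among themselves, in a grouping made after the values were seen. Ndufs5 and Ndufb7 were at least 2-fold lower in IV 5% O2, whereas Ndufb10 and Ndufa8 had small positive differences as deposited that turned negative with median-ratio scaling. The LYR-motif pair also differed in size, with -1.96 for Ndufa6 and -0.62 for Ndufb9. Subunits that fall outside the naming rule were similar in sign. Ndufab1, the acyl carrier protein that binds LYR subunits, had 13.7 and 50.7 RPM (-1.82), and Ndufb1-ps had 35.0 and 51.1 RPM (-0.53).

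Sequence before the gene start was read where a promoter entry was matched, since nuclear respiratory genes are known targets of NRF1, a transcription factor that binds a GC-rich palindrome. RefSeq promoters of GRCm38.p6, 250 bases before to 50 bases after a start, were matched for 32 of the 35 genes. The letters GCGCA, any base, then GCGC, read on both strands, were found in 7 of these 32 (21.9%), in 5.19% of the promoters of 27025 genes and in 11.1% of those of 10831 genes tested. The 7 genes were Ndufa5, Ndufa6, Ndufa8, Ndufa11, Ndufb4, Ndufs5 and Ndufs6. Of these, 5 were at least 2-fold lower in IV 5% O2, with a median of -1.35. Of the 25 subunits whose promoter has no match, 7 were lower, with a median of -0.53. Ndufa2 and Ndufs1, the lowest and the highest difference, had no promoter entry and are in neither count. Both counts stand beside 9.22% lower of all tested genes and 28.2% of those with transcripts under 800 bases. The share of lower values among all genes with these letters was not computed. Up to 120 bases outside annotated exons are shown, with the match in capitals, for 3 genes that have it there (Ndufb4, chr16:37654495-37654614, minus strand, Ndufs5, chr4:123718220-123718339, minus strand, and Ndufa11, chr17:56717686-56717761, plus strand). For contrast, Ndufa3 (chr7:3617253-3617372, plus strand) and Ndufs8 (chr19:3912775-3912894, minus strand) hold no match to these letters, although the first was among the lowest and the second slightly positive as deposited (and negative with median-ratio scaling).
Ndufb4: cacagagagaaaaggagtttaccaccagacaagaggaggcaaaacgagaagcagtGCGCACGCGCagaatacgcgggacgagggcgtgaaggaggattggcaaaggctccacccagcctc
Ndufs5: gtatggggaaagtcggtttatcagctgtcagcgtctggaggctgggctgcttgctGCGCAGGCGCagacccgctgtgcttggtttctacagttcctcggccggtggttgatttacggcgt
Ndufa11: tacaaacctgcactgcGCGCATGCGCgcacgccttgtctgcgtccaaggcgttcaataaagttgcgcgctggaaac
Ndufa3: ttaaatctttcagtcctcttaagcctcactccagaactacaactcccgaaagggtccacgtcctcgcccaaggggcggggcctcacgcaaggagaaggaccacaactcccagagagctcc
Ndufs8: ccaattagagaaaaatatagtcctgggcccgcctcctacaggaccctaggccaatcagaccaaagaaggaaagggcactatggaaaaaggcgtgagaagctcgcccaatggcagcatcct

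The match shown for Ndufb4 is 1 of 3 in its promoter and lies at -191 to -182 from the RefSeq start, and the other 2 are nearer to the start. The match in Ndufs5 lies at -98 to -89 and that in Ndufa11 at -60 to -51. Of other letters searched on both strands, AAGATGGC, bound by YY1, was also found in 7 of 32 subunit promoters, against 3.19% of all promoters and 5.13% of those of tested genes. CCGGAAG, bound by ETS factors, was found in 4 (12.5%, against 9.93% and 19.2%). ACGTG, which includes the site of hypoxia-inducible factors and can overlap an E-box CACGTG, was found in 6 (18.8%, against 21.8% and 28.7%). For these other letters the medians with and without a match lay closer together or in the opposite order. They were -0.87 and -0.62 for the YY1 letters (3 of 7 at least 2-fold lower) and -0.54 and -0.69 for the ETS letters (2 of 4). For ACGTG they were -0.39 and -0.75 (2 of 6). These counts stand beside 9.22% lower of all tested genes and 28.2% of those with transcripts under 800 bases. A match describes these letters alone and no binding was measured.

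Short transcripts held most of the lower subunits. The principal annotated transcript was under 800 bases, a limit chosen after the values were seen, for 16 subunits, all of them accessory. Of these 16, 9 were at least 2-fold lower in IV 5% O2, beside 28.2% of the 967 tested genes with transcripts as short, and their median log2 difference was -1.10, against -0.16 for all such genes. Of the 19 subunits with transcripts of 800 bases and over, 4 were lower, beside 7.88% of all such genes, and 0 were higher, beside 18.9%, and their median was -0.46, against 0.28. The 7 subunits under 600 bases, Ndufa1, Ndufa2, Ndufa3, Ndufa6, Ndufa7, Ndufa11 and Ndufs6, had a median of -1.96, against -0.37 for the 468 tested genes under 600 bases. The median of all genes of this length was thus negative too, and the subunit medians lay below theirs in each of 5 length ranges.

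At 800 bases and over, a limit chosen after the values were seen, the core and accessory medians (-0.10 and -0.75) lay apart. The core transcripts all had over 800 bases, from 983 in Ndufs7 to 2661 in Ndufs1. Among the 13 accessory subunits of this length the median was -0.75. Of these 13, 4 were at least 2-fold lower (Ndufb4, Ndufb2, Ndufa9 and Ndufa5), beside 7.88% of all genes of this length. Part of the Ndufb4 count is open to doubt because of repeated windows, and Ndufb2 shares exons with a gene on the same strand. The median without this pair was not computed. Over the 35 genes, which share the same libraries, Spearman's rho of the log2 difference with principal transcript length was 0.43 and Pearson's r with log10 length 0.31. With the total length of annotated exons these were 0.25 and 0.28. Over all 14692 tested genes with a length, rho was 0.00068 and r 0.081 with transcript length. With exonic length these all-gene values were 0.0068 and 0.080. Within the accessory subunits rho was 0.38 with transcript length and 0.17 with exonic length. How the libraries recovered short RNAs was not tested.

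**Figure D2:**
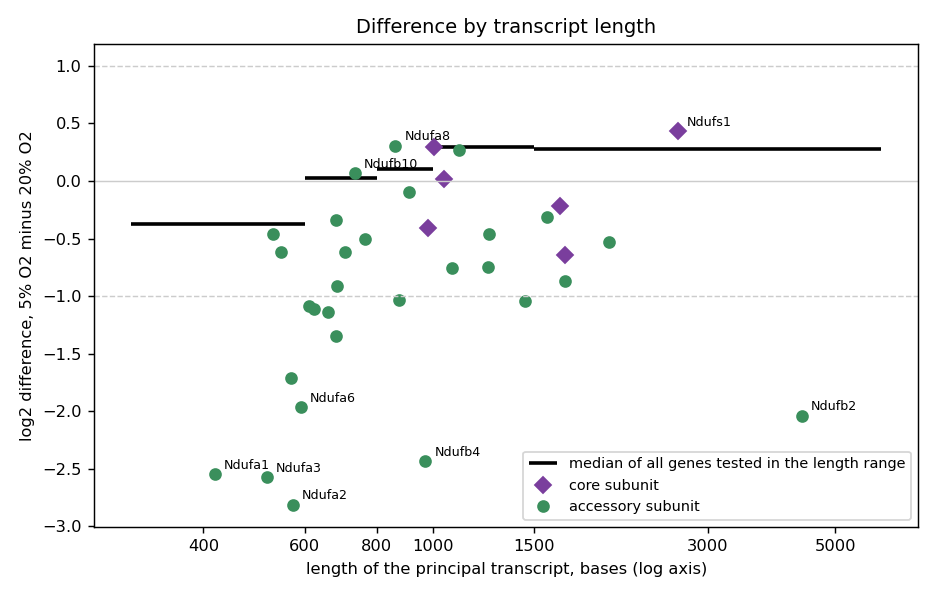
Log2 difference (IV 5% O2 minus IV 20% O2, log2(RPM + 1)) of each subunit against the length of its principal transcript in bases (log axis), with diamonds for core and circles for accessory subunits, dashed lines at 2-fold, and black bars for the median of all genes tested in each of 5 length ranges. The subunits under 600 bases all lie below the bar of -0.37, and Ndufb2, at 4371 bases, is the 1 long transcript near -2.

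Levels can be compared between genes only per length, so RPM were divided by the kilobases of the principal transcript. On this scale Ndufb11 was the highest subunit in IV 5% O2, at 119, followed by Ndufa11 (63.7) and Ndufb8 (56.4). The order depends on the length used, and per kilobase of all annotated exons Ndufb11 (119) was followed by Ndufa8 (46.6) and Ndufa11 (31.8), with Ndufb8 at 12.2. In IV 20% O2 Ndufa2 was highest, at 141, followed by Ndufb11 (128), Ndufa4 (106) and Ndufa1 (106). Ndufa2 stood at 18.6 and Ndufa1 at 16.2 in IV 5% O2, near the median of 17.7. The lowest subunit was Ndufb2 in both columns (0.917 and 4.47), whose annotated principal transcript, at 4371 bases, is the longest of the 35.

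The subunits of 1 complex were unequal in level in both conditions. Per kilobase of transcript they spanned 0.917 to 119 in IV 5% O2, with a median of 17.7 and an SD over genes of 1.36 on the log2 scale. In IV 20% O2 they spanned 4.47 to 141, with a median of 34.0 and an SD of 1.23. Per kilobase of exon the medians were 11.0 and 17.3. Across the 35 genes, which are not independent replicates, r between the columns on log2(RPM + 1) was 0.685 and rho 0.684. Per kilobase of principal transcript, the 6 core subunits kept to a band from 16.5 to 32.4 in IV 5% O2 and from 12.1 to 35.6 in IV 20% O2, with Ndufs8 the highest of them in the former and Ndufv1 in the latter. Per kilobase of exon they ran from 5.44 to 25.2 and from 3.99 to 25.1, with Ndufv2 the highest in IV 20% O2.

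**Figure D3:**
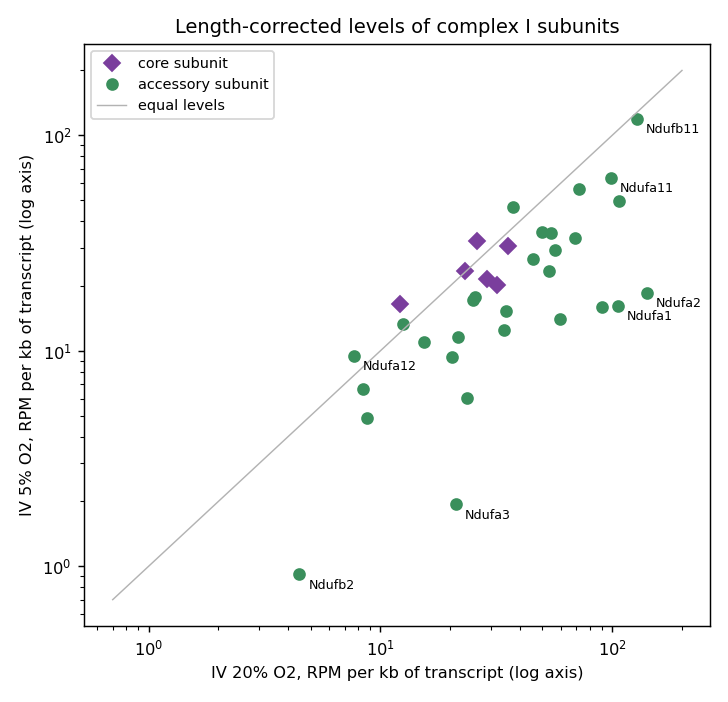
Level of each subunit gene per kilobase of its principal transcript (RPM per kb, log axes) in IV 20% O2 (horizontal) and IV 5% O2 (vertical), with diamonds for core and circles for accessory subunits and a line of equal levels. Ndufa2 and Ndufa1, at 141 and 106 on the horizontal axis, lie far below the line, and Ndufb11 lies close to it at 128 and 119.

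Other genes of the respiratory chain were read from lists beside the subunits. Of 17 assembly factors, which build complex I without remaining in it, 16 were in the table, and 1 was at least 2-fold lower in IV 5% O2, beside 9.22% of all genes, and 0 higher, beside 18.7%, with a median of -0.02. Of the 16, 11 lay below the median of all genes. The median of the list was -0.32 after median-ratio scaling, -0.20 after quantile scaling and -0.15 over genes that averaged 5 RPM or more. The lowest were Ndufaf8 with 5.18 and 13.5 RPM (-1.23) and Ndufaf5 with 4.79 and 9.76 RPM (-0.89). Ndufaf5 passed the 2-fold limit with a pseudocount of 0.1 RPM (-1.01) and after median-ratio (-1.17) and quantile scaling (-1.07). Ndufaf8 fell short of the limit with a pseudocount of 5 RPM (-0.86). The highest were Ecsit with 28.5 and 15.2 RPM (0.87) and Ndufaf4 with 87.7 and 57.0 RPM (0.61). The sums of the 16 genes were 316 and 317 RPM.

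The 7 mitochondrially encoded subunits, which form the proton-pumping core of the membrane arm, were mostly higher. At the pseudocount of 1 RPM, 5 of them were at least 2-fold higher in IV 5% O2, beside 18.7% of all genes. At least 2-fold lower values were found for 0 of them, beside 9.22%. Their median log2 difference was 1.77, with sums of 649 and 168 RPM. The largest was mt-Nd6, the 1 subunit encoded on the opposite strand to the others, with 66.8 and 4.65 RPM (3.59), followed by mt-Nd5 with 227 and 48.0 RPM (2.21). The lowest was mt-Nd4l with 0.507 and 1.64 RPM (-0.81), which passed the 2-fold limit downwards with a pseudocount of 0.1 RPM (-1.52), after quantile scaling (-1.14) and per exonic length (-1.27). Next was mt-Nd3 with 11.8 and 11.5 RPM (0.03, which became -0.26 after median-ratio and -0.11 after quantile scaling). Against the mitochondrially encoded sum, the nuclear subunits had 1.25 times as many RPM in IV 5% O2 and 8.05 times as many in IV 20% O2. Repeats of mitochondrial sequence in nuclear chromosomes were not examined.

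Among the other complexes, III and IV had negative medians and complex II did not as deposited. None of the 4 subunits of complex II, succinate dehydrogenase, was 2-fold apart, and the median was 0.02. Their differences ran from -0.27 for Sdhd (96.5 and 117 RPM) and -0.01 for Sdha (88.6 and 89.4 RPM) to 0.06 for Sdhc (35.6 and 34.2 RPM) and 0.17 for Sdhb (57.6 and 51.1 RPM), and the positive values turned negative with both other scalings. Of 9 complex III genes 3 were lower in IV 5% O2 and 0 higher, with a median of -0.79, from Uqcr10 (8.88 and 42.0 RPM, -2.12) and Uqcrb (10.6 and 30.8 RPM, -1.45) to Cyc1 (27.1 and 26.1 RPM, 0.05) and Uqcrc2 (236 and 217 RPM, 0.12), and the last pair turned negative with both other scalings. All these counts stand beside 9.22% lower and 18.7% higher of all genes, and beside 28.2% lower of genes with transcripts under 800 bases. Complex IV transcripts are short, with a median of 652 bases, against 1363 for complex III. Of 10 complex IV genes 7 were lower and 0 higher, with a median of -1.43, from Cox7c (17.7 and 104 RPM, -2.49) and Cox8a (11.6 and 51.1 RPM, -2.05) to Cox5a (39.6 and 71.8 RPM, -0.84) and Cox4i1 (119.6 and 120.6 RPM, -0.01).

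**Figure D4:**
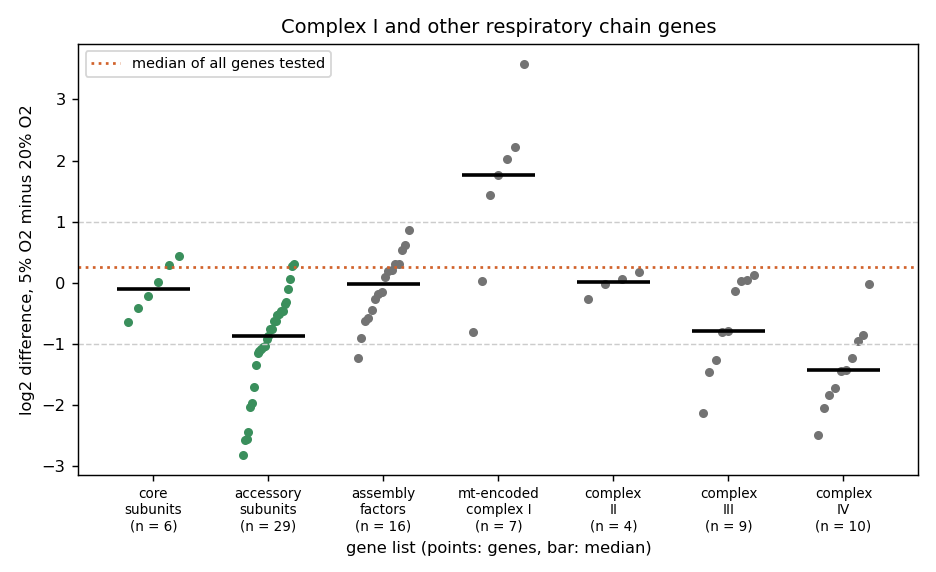
Log2 difference (IV 5% O2 minus IV 20% O2, log2(RPM + 1)) of each gene of 7 lists, with a black bar for each list's median, a dotted line for the median of all genes tested (0.26) and dashed lines at 2-fold. The accessory subunits (median -0.87) and complex IV (-1.43) lie lower than the core subunits (-0.10), and the mitochondrially encoded subunits (1.77) lie above the dotted line except for mt-Nd4l and mt-Nd3.

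Sequence shared with other genes touched part of these values. In 30 of the 35 transcripts no 100-base window is repeated in the genome, and the others were Ndufb4, Ndufs5, Ndufs3 (25.3%), Ndufa12 and Ndufb2. Exons of Ndufb2, Ndufb8 and Ndufb9 overlap another annotated gene on the same strand. Those of 12 subunits overlap a gene on the opposite strand. Among these are Ndufa2 (Tmco6), Ndufa3 (Tfpt), Ndufs1 (Eef1b2 and Ino80dos) and Ndufs6 (Mrpl36). The libraries were strand-specific, but whether counting used the strand is not given in the sources used here. With repeats and overlaps on either strand left out, 18 subunits remained, of which 5 (Ndufa1, Ndufa4, Ndufa5, Ndufa6 and Ndufb7) were at least 2-fold lower and 0 higher, with a median of -0.58, beside 9.22% and 18.7% of all genes. The transcripts of these 5 are under 800 bases except that of Ndufa5, and 28.2% of all genes of that length were lower.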

How the data were processed

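RNA-seq of class IV oocytes was analysed, with 2 conditions of 2 libraries each, and the bisulphite libraries of the study were not used here. The authors aligned reads to mm10 (GRCm38) with TopHat (TopHat2 2.0.9 in the submitters' processing notes), merged them over exons of an oocyte transcript annotation in SeqMonk and deposited log2 values, with 1 column per condition. How the libraries were combined is not stated. The values are named for RPKM, but the linear values are whole multiples of 1 read (within 0.05 reads) for 99.93% and 99.98% of values, and were therefore taken as log2 RPM with no length correction, although the study's methods state a correction for feature length, and reads were recovered from them. These multiples were not used for a count test, since a condition has 1 column. A gene without reads, listed at 0.9 of 1 read, was set to 0. The 1 value column that belongs to no sample of the series was not used.

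Differences were computed from log2(RPM + 1) where a gene averaged 1 RPM or more, which understates low genes. Calls are 2-fold differences, and intervals are exact 95% Clopper-Pearson intervals on reads, without molecular identifiers. For 18 repeated names the row with the highest mean was used. The planned limma fit was not possible on 1 column per condition. Lengths and overlaps came from GENCODE on GRCm38, using the principal transcript, whose 100-base windows, taken every 10 bases, were sought in 22 chromosome sequences. Of the 36 subunits that met the naming rule, 1 is not reported here, for a reason unrelated to its values, and entered no count, sum or median of the subunits. Values in full were given for the core subunits, the 5 highest and 5 lowest differences, the 3 highest levels per kilobase, Ndufa4, and 2 genes at each end of each list, and other subunits more briefly. The subunits, lists and tests were chosen with earlier results of these data known. Counts and intervals were checked on simulated reads. Alternatives were other pseudocounts, filters, scalings, folds and length corrections. Scripts ran in Python 3.11.15 with pandas 2.3.3, numpy 2.4.6, scipy 1.17.1, matplotlib 3.10.9 and numba 0.67.0.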

Additional observations from a re-analysis of the deposited data

How the results depend on the processing

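The count of subunits at least 2-fold lower in IV 5% O2 was 8 with a pseudocount of 5 RPM, beside 4.80% of all genes, and 20 at a fold of 1.5, beside 16.8%, against 13 as reported, beside 9.22%. The share of higher values among all 2-fold differences was 45.6% after median-ratio scaling of the columns. With this scaling and after quantile normalization, in that order, Ndufs3 was at -0.29 and -0.13, Ndufb10 at -0.22 and -0.078, mt-Nd3 at -0.26 and -0.11, Sdhc at -0.25 and -0.11, Sdhb at -0.14 and -0.018, Cyc1 at -0.26 and -0.10, and Uqcrc2 at -0.20 and -0.13. With median-ratio scaling alone, Ndufs8 was at -0.0096, Ndufa12 at -0.015 and Ndufa8 at -0.0033. Spearman's coefficient with length was 0.43 with the principal transcript in place of exonic length. In the other 65 comparisons of a count, median or correlation, the sign was kept and counts stayed within 1.5 times. Medians nevertheless shifted with the scalings, to -0.41 and -0.27 for the core and to -0.32 and -0.20 for the assembly factors. Of the differences of single named genes, 199 shifted by no more than the longer arm of the counting interval of that gene's log2 ratio, and 72 by more without a change of sign, among them mt-Nd4l at -1.52 with a pseudocount of 0.1 RPM. Division by transcript length, leaving out subunits with repeats or a same-strand overlap (10 of 28 lower) and transcript length for the correlation were chosen after seeing the data. No paired analysis was possible because each condition has 1 column, and for the same reason limma and leaving out a library were not run. Precision was lowest for genes with few reads in either column, such as Ndufa3 in IV 5% O2 and Ndufa12 in IV 20% O2.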
